A study of Homo sapiens with 8 samples.

Results

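FT293 cells expressing a GFP-tagged HuR were compared with FT293 cells expressing GFP alone. FT293 is a Flp-In T-REx derivative of HEK293, a human embryonic kidney line, in which a transgene sits at one chosen genomic site and is switched on by tetracycline. RNA was taken on day 3 of tetracycline in 4 lines, expressing GFP, GFP-HuR, GFP-TIA1 or GFP-TIAR, and each line was measured on 2 one-colour arrays, so that 4 of the 8 arrays belong to the HuR and GFP lines. All lines carry a GFP-containing transgene and all received tetracycline. The sources used here do not give whether each line is 1 clone, or whether the 2 arrays of a line come from separate cultures, so the spread between them may be technical and the p-values measure only that spread.

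HuR, the product of ELAVL1, is an RNA-binding protein of the ELAV family. It binds U-rich and AU-rich elements, mostly in 3′ untranslated regions and introns, moves between nucleus and cytoplasm, and is best known for protecting short-lived mRNAs of cyclins, growth factors and cytokines from decay. Other AU-rich element binding proteins, among them the TIA proteins, ZFP36 and AUF1, compete for the same RNAs, and in kidney epithelial lines HuR is abundant and mainly nuclear. The comparison asks which RNAs differ in level between cells with added HuR and cells with the tag alone.

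Each signal is given as the log2 of the processed signal minus the 75th percentile of its array, so 0 is a moderately bright probe and values under -4 are dim. A gene is described by its tested probe with the highest mean signal, and positions are those of the probe on hg19 (GRCh37). A gene was counted as higher or lower than both GFP arrays where the HuR mean lay at least 2-fold past each of them and the arrays of the lines did not overlap. Probes were tested where they were well above background on both HuR arrays or on GFP 2, which left 28871 probes and 16009 genes. A gene that is dim on the HuR arrays therefore entered only through its signal on GFP 2.

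GFP 1 differed from the other arrays. It had 86.0% of its 50599 probes well above background, against 53.2% to 58.5% on the other 7 arrays. On dim probes, with a mean signal under -4, GFP 1 was higher than GFP 2 by a median of 1.15 on the log2 scale, and on probes above 2 it was lower by 0.34. In total 20.2% of tested probes differed by at least 2-fold between the GFP arrays and 0.907% between the HuR arrays. For this reason each GFP array is given apart.

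**Figure D1:**
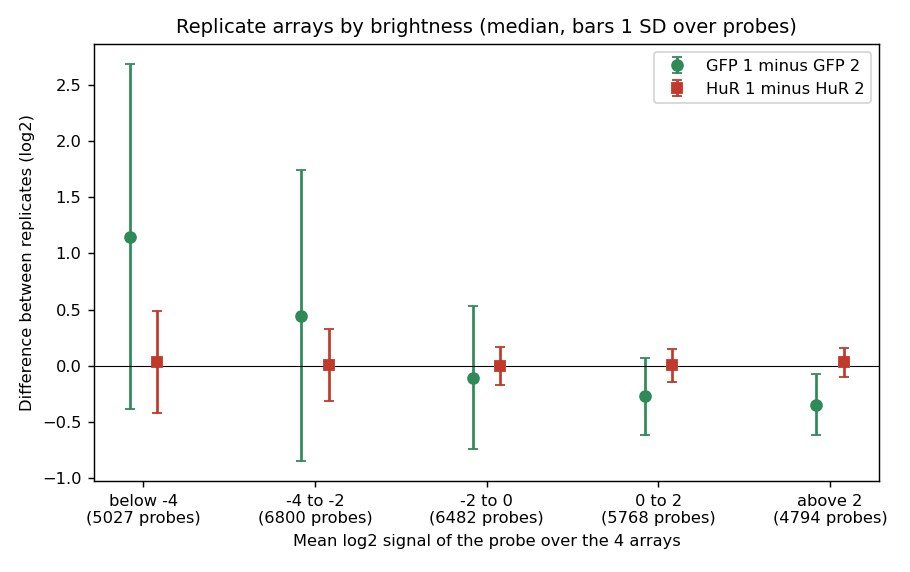
Difference between the replicate arrays of a line (log2, y axis) for tested probes grouped by mean log2 signal over the 4 arrays (x axis). Points are medians and bars are 1 SD over probes. The HuR arrays differ by a median of at most 0.04 in each group, while GFP 1 minus GFP 2 runs from 1.15 in the dimmest group to -0.34 in the brightest.

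The transcriptome of the HuR line differed from that of the GFP line in a set of genes with very large differences and in whole chromosomes. GSTP1, a glutathione transferase of detoxification, was 176-fold brighter in HuR cells than on the nearer GFP array. Against the nearer GFP array, the matrix gene MFAP2 was at least 95.4-fold dimmer with the scaling used here. The actin bundler LCP1 was 181-fold dimmer. CCND1, the gene of cyclin D1, was brighter against both GFP arrays, and genes along the whole of chromosome 20 were dimmer by a median of 0.54 on the log2 scale. Limma on the 4 arrays called 0 genes higher (0% of 16009 tested) and 0 lower (0%), with a smallest adjusted p of 0.0911. At an unadjusted p under 0.05 there were 2750 genes (17.2%), of which 350 were at least 2-fold higher and 630 at least 2-fold lower in HuR cells.

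By the rule without a test, 206 genes (1.29%) were 2-fold higher in HuR cells than on both GFP arrays and 530 genes (3.31%) were 2-fold lower. Of these, 148 and 352 were well above background on all 4 arrays. Against GFP 1 alone 755 genes were 2-fold higher and 2367 lower, and against GFP 2 alone 590 and 706. The split between directions depends on how arrays are scaled, since 28% of the 736 genes were higher here and 62.0% were higher in the authors' quantile-normalized values. Under all 6 ways of making the values that were tried, 70 of the 206 and 78 of the 530 genes kept their place. A limma fit on all 8 arrays called 234 genes higher (1.46%) and 415 lower (2.59%), but it takes the spread of the other lines for that of the GFP arrays.

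**Figure D2:**
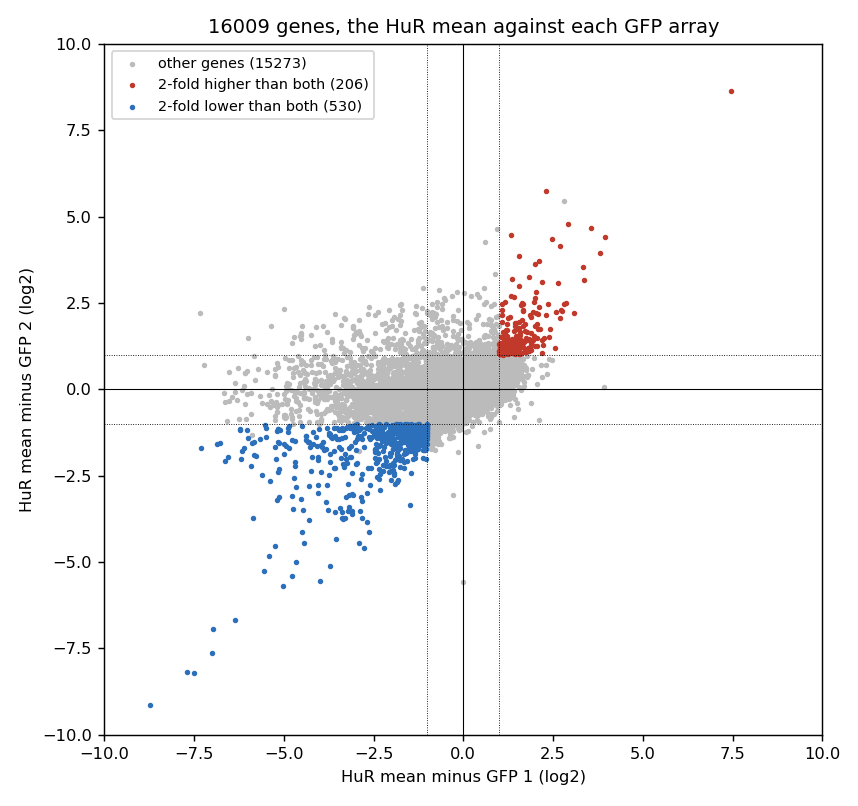
The HuR mean minus GFP 1 (log2, x axis) against the HuR mean minus GFP 2 (log2, y axis) for 16009 genes, with dotted lines at a 2-fold difference. The 206 genes higher than both GFP arrays lie in the upper right, the 530 lower than both in the lower left, and the grey genes left of the line on the x axis only are those lower than GFP 1 but not GFP 2.

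ELAVL1 itself was read by 1 probe (NM_001419, chr19:8028279-8028338). Its log2 signal was 0.33 and 0.42 on the HuR arrays, and 1.09 and 0.91 on the GFP arrays. Both HuR arrays lay below both GFP arrays, by 0.63 (standard error 0.17, adjusted p = 0.234 from limma on 4 arrays). The TIA1 arrays, at -0.28 and 0.46, and the TIAR arrays, at 0.23 and 0.82, also lay below both GFP arrays. Where this probe lies relative to the HuR coding part that the transgene carries was not determined here, so it does not check the transgene. ELAVL2, a mostly neuronal ELAV protein, was also below both, at -2.86 and -2.71 against -1.44 and -2.07 (adjusted p = 0.238 from limma). ELAVL3 and ELAVL4 did not pass the filter. The genes of the other expressed proteins, TIA1 and TIAL1, differed from GFP cells by -0.05 and 0.23, within or near the spread of the GFP arrays.

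The list of HuR target mRNAs holds 47 transcripts that are widely described as bound by HuR, of which 43 were tested. Of these 3 were 2-fold higher than both GFP arrays (6.98%, against 1.29% of all genes) and 1 was lower (2.33%, against 3.31%). The median difference was 0.11, against 0.03 over all genes. CCND1, which drives entry into S phase, had log2 signals of 0.75 and 0.91 in HuR cells and -0.94 and -0.84 in GFP cells, a 3.29-fold difference of means (log2 1.72, standard error 0.16, adjusted p = 0.163 from limma). Its signal in the 4 TIA1 and TIAR arrays was -1.08 to -0.77, below both HuR arrays. PTGS2, the inducible prostaglandin synthase, was at -3.98 and -4.19 on the HuR arrays and not well above background on either GFP array. It was at least 2.78-fold higher with the scaling used here, but its lowest log2 difference under any setting tried was 0.47. GATA3, a transcription factor, was at 0.36 and 0.27 against -1.21 and -0.84. CCND1 kept its place under all 6 ways of making the values, GATA3 in 5 and PTGS2 in 3.

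Among the other targets, the immediate early genes JUN and DUSP1 and the hypoxia factor HIF1A did not overlap between lines, with differences of 0.89, 1.01 and 0.87. MYC was at 3.37 and 3.41 in HuR cells and at 2.71 and 3.04 in GFP cells, 0.36 above the nearer GFP array. The largest difference downwards was that of TNF, an inflammatory cytokine, at -4.92 and -5.35 in HuR cells against -2.26 and -4.57, which was 0.57 below GFP 2. SNAI1 and MSI1 were lower by 0.92 and 0.96. VEGFA lay between 0.04 above GFP 1 and 0.02 below GFP 2. The member 2-fold lower than both was MMP9, a matrix protease on chromosome 20, at -2.87 and -2.88 against -1.83 and -1.59. Over the list, both HuR arrays lay above both GFP arrays for 18 members, below for 12 and overlapped for 13, where 31.4% of all genes lay above and 26.7% below. Of the 20 tested genes of other AU-rich element binding proteins, 0 were past 2-fold in either direction, and their differences ran from -0.27 to 0.71. Over all genes 1.29% were higher and 3.31% lower.

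Of 44 tested genes of amino acid and lipid metabolism, 3 were higher than both GFP arrays (6.82%, against 1.29% of all genes) and 1 was lower (2.27%, against 3.31%), and the median difference was 0.27. The higher genes included BCAT1, a branched-chain aminotransferase (3.17 and 3.36 against 1.38 and 1.92), and ME1, malic enzyme (1.78 and 1.85 against 0.78 and 0.50). The lower one was CPT1A, which brings fatty acids into mitochondria (-3.65 and -3.60 against -1.77 and -2.59). The second BCAT1 probe differed by 0.35.

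Targets of ATF4, the transcription factor of the amino acid response, had a median difference of 0.44 over 31 tested genes, and 0.14 against GFP 2 alone. Of these 2 were 2-fold higher than both GFP arrays (6.45%, against 1.29% of all genes) and 0 were lower (3.31% of all genes). SLC7A11, the cystine transporter, was at 1.84 and 1.88 in HuR cells and 0.39 and 0.31 in GFP cells (adjusted p = 0.163 from limma). GARS, glycyl-tRNA synthetase, was at 2.36 and 2.47 against 1.10 and 0.32. Below 2-fold, the cationic amino acid transporter SLC7A1 lay 1.43 above GFP 1 and 0.96 above GFP 2, and PSAT1 of serine synthesis 1.39 and 0.77. In all, 18 of the 31 members lay above both GFP arrays on both HuR arrays and 2 below, where 31.4% of all genes lay above and 26.7% below. The genes are bright, and GFP 1 was lower than GFP 2 on bright probes.

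The largest differences were of genes whose signal was near background in one line and bright in the other. GSTP1 (NM_000852, chr11:67354050-67354109) read 4.44 and 4.33 on the HuR arrays and -3.08 and -4.26 on the GFP arrays. The HuR mean was 176-fold above GFP 1 and 400-fold above GFP 2 (log2 difference 8.05, standard error 0.46, adjusted p = 0.115 from limma). The 4 TIA1 and TIAR arrays read 3.67 to 4.03, close to the HuR arrays and far from the GFP arrays.

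MFAP2, a microfibril protein (NM_017459, chr1:17302138-17302197), read 0.56 and 0.97 in GFP cells and 0.89 to 1.05 in TIA1 and TIAR cells. It was not well above background on either HuR array, at least 110-fold below the GFP mean and at least 95.4-fold below GFP 1. These bounds hold for the scaling used here, since the log2 difference smallest in size under any setting tried was -4.955. LCP1, an actin-bundling plastin of blood cells (chr13:46700337-46700396), read -4.29 and -4.15 in HuR cells against 3.28 and 3.98 in GFP cells, 181-fold and 294-fold lower (log2 difference -7.85, standard error 0.30, adjusted p = 0.0911 from limma). In TIA1 and TIAR cells it read 3.19 to 3.61. For both genes the HuR arrays lay far below all 6 others.

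The promoters of these 3 genes are shown because GSTP1 had the largest difference upwards, MFAP2 the largest downwards and LCP1 the largest downwards among genes well above background on all 4 arrays. RefSeq gives the window from 250 bases before to 50 after the gene start on GRCh38.p14, and windows were taken for 60 of the 87 named genes. The other named genes were left out, and whether each of them has an entry is not given here. Capitals mark CG, which reads the same on both strands. The motif TATAAA was also sought, on both strands and anywhere in the window. The GSTP1 window (chr11:67583562-67583861, plus strand) holds 36 CG, and 12.5% of all 27305 promoters hold at least as many. The MFAP2 window (chr1:16981534-16981833, minus strand) holds 5 CG (69.5% hold at least as many), and the LCP1 window (chr13:46182128-46182427, minus strand) holds 2 CG (88.5%). The LCP1 window also holds TATAAA at its very start and again near its middle, both before the gene start.
GSTP1: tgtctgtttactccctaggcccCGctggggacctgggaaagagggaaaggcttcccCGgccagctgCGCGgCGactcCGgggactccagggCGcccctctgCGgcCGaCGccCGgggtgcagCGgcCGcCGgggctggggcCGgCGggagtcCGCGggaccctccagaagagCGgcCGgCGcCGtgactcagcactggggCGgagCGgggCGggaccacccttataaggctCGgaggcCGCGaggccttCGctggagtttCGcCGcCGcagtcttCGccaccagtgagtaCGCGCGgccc
MFAP2: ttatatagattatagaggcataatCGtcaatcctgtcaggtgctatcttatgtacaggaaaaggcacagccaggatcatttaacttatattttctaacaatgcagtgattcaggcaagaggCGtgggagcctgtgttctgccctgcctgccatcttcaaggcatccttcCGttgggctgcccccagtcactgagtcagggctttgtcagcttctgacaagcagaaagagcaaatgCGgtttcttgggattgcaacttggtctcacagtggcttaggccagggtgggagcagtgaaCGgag
LCP1: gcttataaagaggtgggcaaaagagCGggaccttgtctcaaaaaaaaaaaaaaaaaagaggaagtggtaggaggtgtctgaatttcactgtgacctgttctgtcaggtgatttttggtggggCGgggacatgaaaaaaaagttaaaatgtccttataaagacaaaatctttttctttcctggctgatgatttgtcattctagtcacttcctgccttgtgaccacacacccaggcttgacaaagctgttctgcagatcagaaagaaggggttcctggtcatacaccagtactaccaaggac
Over all tested genes with an entry the median was 25 CG, over those lower than both GFP arrays 18 and over those higher 22. TATAAA was present in 6.88% of tested genes, 10% of those lower, 12.9% of those higher and 12% of all promoters.

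**Figure D3:**
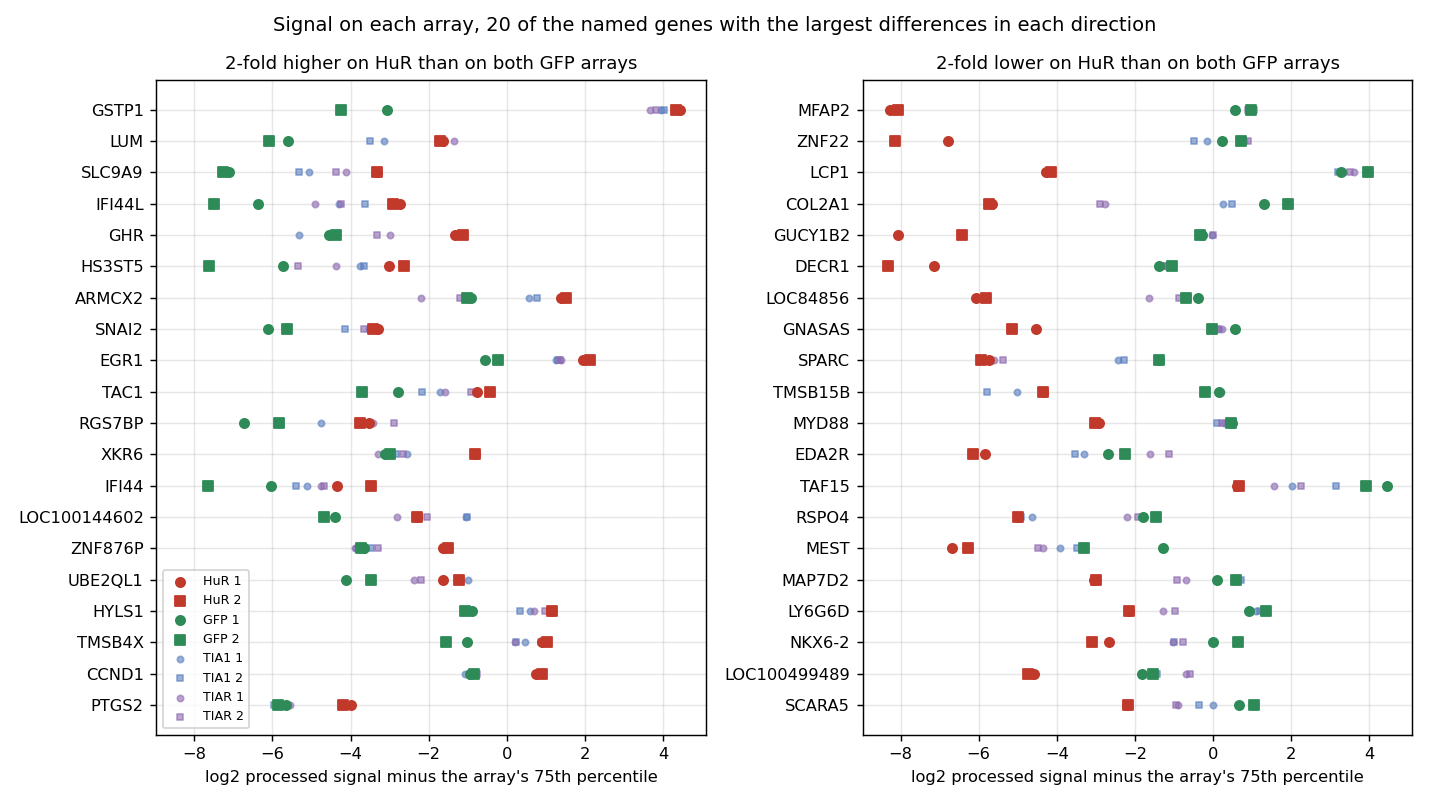
Log2 processed signal minus the array's 75th percentile (x axis) on each array for 20 of the named genes with the largest differences from the nearer GFP array in each direction. Red points are the HuR arrays, green the GFP arrays, and small blue and violet points the TIA1 and TIAR arrays. GSTP1 is at 4.44 and 4.33 on the HuR arrays and at -3.08 and -4.26 on the GFP arrays, and LCP1 is the reverse.

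Other genes higher than both GFP arrays differed in where the TIA1 and TIAR arrays lay. Over all 206, the 4 arrays were on the GFP side of the midpoint for 41, on the HuR side for 77 and on both sides for 88. Of the 28 named, they were on the GFP side for 8 and on the HuR side for 10. On the GFP side were, among others, CCND1, BCAT1, ME1, PTGS2, GHR, XKR6 and ZNF876P. GHR, the growth hormone receptor, read -1.31 and -1.11 in HuR cells against -4.56 and -4.38 in GFP cells. A probe for another transcript of the gene differed by 0.56, but by -0.99 from GFP 1 and by 2.11 from GFP 2. XKR6 read -0.82 and -0.81 against -3.13 and -2.98, but its other 2 probes differed by only 0.32 and 0.39.

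On the HuR side were GSTP1, EGR1, HYLS1, TMSB4X, LUM, SNAI2, GATA3, CDCA7, UBE2QL1 and LOC100144602. EGR1, an immediate early transcription factor, read 1.95 and 2.12 in HuR cells, -0.55 and -0.22 in GFP cells and 1.27 to 1.40 in TIA1 and TIAR cells. It was the single member of 31 tested immediate early genes past 2-fold against both (3.23%, where 1.29% of all genes were higher). TMSB4X, which sequesters actin monomers, read 0.89 and 1.03 against -1.01 and -1.57, and its second probe differed by 0.83. ARMCX2 read 1.38 and 1.51 against -0.92 and -1.02, and the neuropeptide gene TAC1 -0.76 and -0.43 against -2.80 and -3.71.

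For 36 of the 206 genes neither GFP array had the probe well above background, and the fold is then a bound. IFI44L was at least 7.88-fold higher in HuR cells, the sodium/proton exchanger SLC9A9 at least 5.58-fold, the mesenchymal repressor SNAI2 at least 5.38-fold, RGS7BP at least 4.46-fold and IFI44 at least 3.58-fold. These bounds hold for the scaling used here, since the lowest log2 difference of these 5 genes under any setting tried was 0.81 to 1.58. The heparan sulfotransferase HS3ST5 read -3.03 and -2.63 in HuR cells against -5.74 and -7.61 in GFP cells, but its second probe was above background on GFP 1 and higher than that array by 1.35. IFI44L and IFI44 are neighbouring interferon-induced genes on chromosome 1. Of 33 tested interferon genes, 3 were higher than both GFP arrays (9.09%, against 1.29% of all genes), the other being IFI27, and 4 were lower (12.1%, against 3.31%). The lower ones were MYD88, BST2, PSMB9 and IRF7. Of these 7 genes, IFI44L and MYD88 kept their place under all 6 ways of making the values, and IFI27 in 1. MYD88, the adaptor of Toll-like receptors, read -2.92 and -3.02 in HuR cells against 0.47 and 0.46 in GFP cells and 0.09 to 0.46 in TIA1 and TIAR cells (log2 difference -3.44, standard error 0.15, adjusted p = 0.0911 from limma).

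Of the 530 genes lower than both GFP arrays, all 4 TIA1 and TIAR arrays lay on the GFP side for 207, on the HuR side for 129 and on both sides for 191, while 3 lacked a value. Of the 40 named, all 4 were on that side for 24 and on the HuR side for 3, which were BST2, FABP6 and H19. FABP6 and H19 also differed widely between the GFP arrays, at -0.28 and -3.97 for FABP6 and -0.67 and -3.89 for H19. Neither HuR array was above background for ZNF22, GUCY1B2, LOC84856, DECR1 and FABP6 besides MFAP2. ZNF22, a zinc finger gene, was at least 89.8-fold lower. GUCY1B2, whose probe is for a noncoding transcript, was at least 52.4-fold lower, and the RNA LOC84856 (now LINC00839) at least 40.1-fold. DECR1, a mitochondrial enzyme of fatty acid oxidation, was at least 28.0-fold lower. The bile acid binding protein FABP6 was at least 14.9-fold below the GFP mean, but at least 4.14-fold below GFP 2. These bounds hold for the scaling used here. The log2 differences smallest in size under any setting tried were -4.14 for ZNF22, -3.55 for GUCY1B2 and -2.855 for LOC84856. For DECR1 and FABP6 they were -2.955 and -2.11.

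Among genes with signal on all 4 arrays, COL2A1, the fibrillar collagen of cartilage, read -5.67 and -5.74 in HuR cells and 1.30 and 1.93 in GFP cells. It was 128-fold below GFP 1 and 198-fold below GFP 2 (log2 difference -7.31, standard error 0.28, adjusted p = 0.0911 from limma), and the TIAR arrays lay between the lines at -2.75 and -2.89. TAF15, an RNA-binding protein, read 0.61 and 0.67 against 4.47 and 3.91. Its TIA1 arrays, at 2.02 and 3.15, and TIAR arrays, at 1.57 and 2.25, lay between the lines. TMSB15B, a beta-thymosin gene, read -4.34 and -4.36 against 0.14 and -0.21, and the TIA1 arrays were as low, at -5.01 and -5.79. MAP7D2, LY6G6D, NKX6-2, SCARA5 and RSPO4 were lower than the nearer GFP array by 2.84 to 3.20 on the log2 scale.

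Of 50 tested genes of the extracellular matrix and adhesion, 7 were lower than both GFP arrays (14%, against 3.31% of all genes). A further 3 were higher (6%, against 1.29%), and the median difference was -0.14. Besides MFAP2 and COL2A1 the lower ones were SPARC, COL6A2, COL5A1, COL9A3 and COL5A2. SPARC, a secreted collagen-binding protein, read -5.72 and -5.93 in HuR cells, with 1 of 2 arrays above background, -1.38 and -1.37 in GFP cells, -2.44 and -2.28 in TIA1 cells and -5.60 and -5.39 in TIAR cells. The higher ones were LUM, SPOCK1 and COL4A5. LUM, a collagen-binding proteoglycan, read -1.63 and -1.71 in HuR cells against -5.61 and -6.08 in GFP cells, where 1 of 2 arrays was above background. The genes of this list therefore lay far apart in both directions, from -8.93 to 4.17. Of 33 tested actin cytoskeleton genes, the bundlers LCP1 and FSCN1 were lower (6.06%, against 3.31% of all genes) and TMSB4X was higher (3.03%, against 1.29%). FSCN1 read 1.97 and 2.00 against 3.24 and 3.59.

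Of 28 tested neuronal genes, 9 were lower than both GFP arrays (32.1%, against 3.31% of all genes) and 1 was higher (3.57%, against 1.29%), and the median difference was -0.39. NEUROD2, a neuronal transcription factor, was not above background on either HuR array and read -1.82 and -3.67 in GFP cells. With the scaling used here it was at least 9.69-fold below their mean and at least 5.11-fold below GFP 2. Its log2 difference smallest in size under any setting tried was -1.25. The granule protein gene CHGB read -5.87 and -5.40 against -1.35 and -2.84, with 1 HuR array above background. STMN3, a microtubule regulator, read -1.68 and -1.56 against 0.22 and 0.33, and MAP2, a dendritic microtubule protein, was the higher one at -1.07 and -0.97 against -2.49 and -2.38. The rest included CHRM3, ODZ1, DRD2, SCG3 and SNAP25. Of the 9 lower genes 4 kept their place under all 6 ways of making the values, among them NEUROD2, CHGB and STMN3, and DRD2 and SCG3 kept it in 2. CHGB, STMN3 and SNAP25 lie on chromosome 20. The list is mostly dim, and GFP 1 was raised on dim probes.

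Imprinted genes are expressed from the copy of 1 parent. Of 24 tested, 6 were lower than both GFP arrays (25%, against 3.31% of all genes) and 0 were higher (1.29% of all genes), with a median difference of -0.47. GNAS-AS1, the antisense transcript of the GNAS locus (named GNASAS on the array, chr20:57402287-57402346), read -4.54 and -5.15 in HuR cells, 0.57 and -0.03 in GFP cells and -0.02 to 0.22 in TIA1 and TIAR cells. Its other 2 probes differed by -7.55 and -7.57. Without strand-specific counts of both partners, the antisense call rests on the probe design. MEST, a hydrolase-like protein, was not above background in HuR cells and at least 13.3-fold below the GFP mean, while its GFP arrays differed, at -1.29 and -3.29. Against GFP 2 the bound was 6.63-fold, and the log2 difference of MEST smallest in size under any setting tried was -1.54. L3MBTL1, a chromatin reader, read -2.998 and -2.94 against -1.56 and -0.95, and DIO3, CDKN1C and H19 were the others. GNAS-AS1 and MEST kept their place under all 6 ways of making the values, and the other 4 in 3 or 4.

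Of 37 tested developmental transcription factors and retinoid genes, 4 were lower than both GFP arrays (10.8%, against 3.31% of all genes) and 2 were higher (5.41%, against 1.29%). FOXA2, a pioneer factor of endoderm on chromosome 20, read -2.91 and -3.04 against -0.55 and -0.42 (adjusted p = 0.13 from limma). CYP26A1, which degrades retinoic acid, read -1.06 and -1.02 against 0.38 and 0.71, and the retinoic acid binding protein CRABP2 was lower by 1.14. LHX1 of the kidney anlage read -0.72 and -0.89 against 0.51 and 0.93, and SOX3, a neural progenitor factor, was higher, at -1.46 and -1.27 against -2.82 and -3.11. Of 34 tested HOX genes 1 was lower (2.94%, against 3.31% of all genes). This was HOXA6, at 1.43 and 0.60 against 2.52 and 2.81. Of 58 tested growth factor, WNT and BMP genes, GHR was higher (1.72%, against 1.29% of all genes). CCL2, WNT6, SFRP1 and IGFBP6 were lower (6.9%, against 3.31%), and 0 of these 4 kept their place under all 6 ways of making the values.

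Cell cycle and ribosomal protein genes lay mostly within 2-fold of the GFP arrays. Of 43 tested S phase genes 1 was higher than both GFP arrays (2.33%, against 1.29% of all genes). This was CDCA7, a MYC-responsive gene, by 1.09 or more, although its second probe differed by -0.01. Of 54 tested G2/M genes and 84 cytosolic ribosomal protein genes, 0 were past 2-fold in either direction. Over all genes 1.29% were higher and 3.31% lower. The death receptor gene EDA2R was at least 11.3-fold below the GFP mean with the scaling used here. Its log2 difference smallest in size under any setting tried was -1.04.

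CDKN1A, the p21 cell cycle inhibitor, read -3.18 and -2.74 in HuR cells against -2.91 and -2.93 in GFP cells. The apoptosis gene BAX read 1.93 and 1.91 against 2.79 and 3.17, lower than GFP 1 by 0.87 and than GFP 2 by 1.25 (adjusted p = 0.196 from limma). A second BAX probe was lower by 1.28. BCL2, its antagonist, was above both GFP arrays by 0.48 or more at its most intense probe, while its second probe was lower, at -1.56 and -1.71 against -1.52 and -1.20. BCL2L1, on chromosome 20, was below both by 0.36 or more. GADD45B was below both by 0.51 or more. BBC3, NUP98, CASP8 and CASP9 lay between or at the GFP arrays, although the second probes of NUP98 and CASP8 were below both, with differences of -0.44 and -0.42. HMGN5 lay 0.35 above the nearer one. The translation factor EIF4E differed by 0.19 at its most intense probe and by 0.20 and 1.39 at the others. GAPDH read 7.54 and 7.46 against 7.27 and 7.60.

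The labelled cell type was checked by its markers. All 8 HEK293 markers were above background on both HuR arrays and GFP 1, and 7 on GFP 2, and their summed signal was 6.95 to 7.33 on the 4 arrays. NEFL, the neurofilament light chain gene that this line expresses, was higher by 1.04. Of 10 leukocyte markers measured, 5 were above background on each HuR array, 4 on GFP 2 and 10 on GFP 1, with a summed signal of 2.00 on GFP 1 and 0.15 to 0.38 on the others. For the fibroblast list the sum was 1.47 on GFP 1, -2.35 on GFP 2 and -0.78 and -0.84 on the HuR arrays, where LUM is a member. The part of other cell types in the differences was not tested.

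Genes of some chromosomes were shifted together. Over 14620 genes well above background on all 8 arrays, with each array centred on its median, the 404 genes of chromosome 20 had a median HuR minus GFP of -0.54, a ratio of 0.687. This held in each of the 4 pairs of a HuR and a GFP array, from -0.48 to -0.57, while chromosome medians between replicates ran from -0.02 to 0.03 for HuR and from -0.11 to -0.01 for GFP. Both HuR arrays lay below both GFP arrays for 76.2% of the chromosome 20 genes, against 32.6% of all genes. In TIA1 cells the chromosome 20 median was 0.01 and in TIAR cells -0.02 relative to the same GFP arrays. Of 435 tested genes on chromosome 20, 51 (11.7%) were 2-fold lower than both GFP arrays and 0 were higher, while 3.08% of genes elsewhere were lower.

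**Figure D4:**
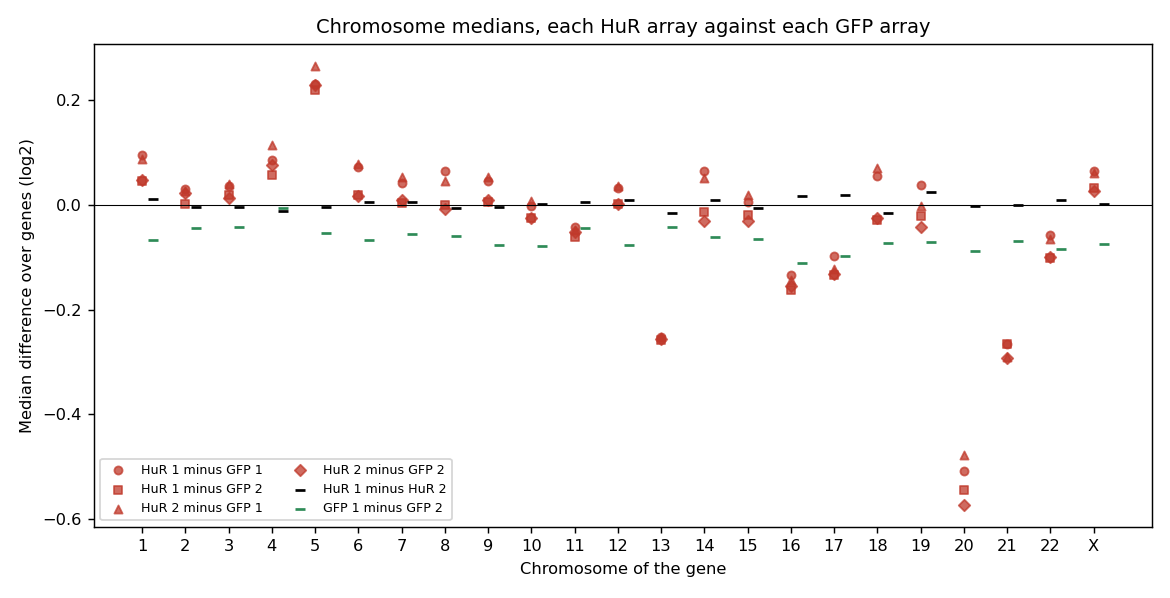
Median HuR minus GFP difference of the genes of each chromosome (log2, y axis), for each of the 4 pairs of arrays (red symbols), with the differences between replicate arrays as dashes. Chromosome 20 lies at -0.48 to -0.57 in all 4 pairs, chromosomes 13 and 21 near -0.3, and chromosome 5 above 0.2.

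The shift of chromosome 20 was present along its whole length. In 7 windows of 10 Mb its median ran from -0.34 to -0.79. Other chromosomes were shifted in a part. On chromosome 17, the 2 windows from 20 to 40 Mb had medians of -0.47 and -0.52 over 202 genes, and the other windows lay between -0.14 and 0.11. TAF15, LHX1, CCL2 and NEUROD2 lie in these windows. On chromosome 16, the 4 windows from 50 Mb on lay at -0.32 to -0.49 and those before 40 Mb at -0.01 to 0.15. In the same later windows the TIA1 line lay at -0.33 to -0.56 and the TIAR line at -0.12 to 0.15 relative to the same GFP arrays, so these values share their controls.

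Chromosome 13 had a median of -0.27 and chromosome 21 of -0.31. The chromosome 21 median was -0.09 in TIA1 cells and -0.27 in TIAR cells, against the same GFP arrays. From 40 Mb on, chromosome 13 windows ran from -0.25 to -0.62 in HuR cells and from -0.45 to -1.12 in TIAR cells, and LCP1 and GUCY1B2 lie there. Chromosome 5 was higher, with a median of 0.25. Its windows from 120 Mb on lay at 0.24 to 0.42 in HuR cells, at 0.13 to 0.35 in TIA1 cells and at 0.05 to 0.35 in TIAR cells, all against the same GFP arrays. EGR1 and DUSP1 lie on chromosome 5. Of the genes on chromosome 20, with its median of -0.54, GNAS-AS1 had a difference of -5.11, FOXA2 of -2.48, COL9A3 of -1.37, SNAP25 of -1.20, MMP9 of -1.16 and SNAI1 of -0.92. DNA copy number was not measured, and its part in these shifts was not tested.

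**Figure D5:**
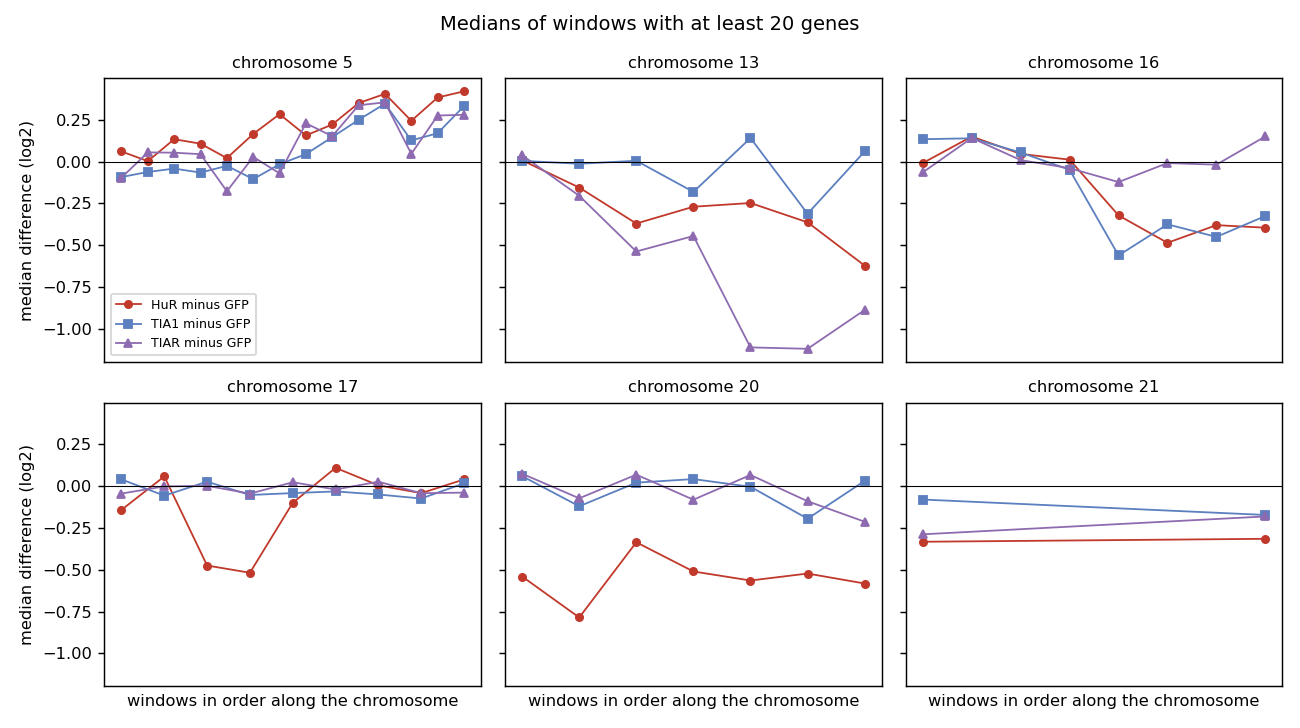
Median difference from the GFP line (log2, y axis) in successive 10 Mb windows with at least 20 genes (x axis, in order along the chromosome) for the HuR, TIA1 and TIAR lines. In the HuR line chromosome 20 is at -0.34 to -0.79 along its length, 2 neighbouring windows of chromosome 17 are at -0.47 and -0.52, and the later windows of chromosome 16 are at -0.32 to -0.49. All lines are set against the same GFP arrays.

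Of the 68 named genes past 2-fold against both GFP arrays, 46 kept that place under all 6 ways of making the values, 21 of them higher and 25 lower. Their adjusted p from limma on 4 arrays ran from 0.0911 to 0.286. Those that kept it in 2 of the 6 ways were CDCA7, ME1, CCL2, CPT1A, MMP9 and VWF. The number of arrays limits the precision throughout, and a 2-fold difference against 2 arrays of each line is a description of these arrays.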

How the data were processed

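RNA of the GFP-HuR and GFP lines was measured on 2 one-colour human arrays each, all 8 arrays of the series on 1 slide with 1 scan each. Per the deposited files, Agilent's Feature Extraction turned each scan into a processed intensity per spot, with the array's own background and spatial trend removed and no adjustment between arrays. They also deposited a table of quantile-normalized log2 values, used here as an alternative. The flags for outlier spots and for signal well above background, other deposited columns, served as filters. The submitters' processing notes name limma, with no version. The authors' background correction and normalization for their calls are not given in the sources used here.

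Here, outlier spots were left out, log2 signals minus each array's 75th percentile were averaged per probe, and limma 3.58.1 (lmFit, eBayes, R 4.3.3) was fitted to the 4 arrays. A call needed a 2-fold change and a Benjamini-Hochberg adjusted p under 0.05. Other packages were pandas 2.3.3, data.table (version 1.17.8) and matplotlib 3.10.9. Of the tested probes, 22622 matched a RefSeq gene, 20804 of them by accession. The probes printed are those with the highest mean signal of a gene, and 46 probes with an outlier spot on 1 of the 4 arrays were left out. Bounds ("at least") set the dim line, array by array, at no less than the faintest signal that counted as above background there. Limma was also run on simulated data. At the observed spread the fit to 4 arrays missed the 2-fold and 4-fold differences put in, and at a common spread it called them. Some unchanged probes also passed the rule without a test at the observed spread. Replicate numbers were not used to pair the arrays in the main fit. The correlation of same-numbered deviations was 0.05, but GFP 1 stood apart from GFP 2, so this value cannot tell whether same-numbered arrays belong together.

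Named were the ELAV and TIA genes and genes that the study measured singly. Among genes well above background on all 4 arrays, the 12 with the largest difference from the nearer GFP array were named in each direction. The 6 largest bounds in each direction and up to 4 members of each list were also named. The remaining list members past 2-fold were named to complete counts, after their values were seen, as were JUN, DUSP1, HIF1A, VEGFA, SNAI1, TNF, MSI1, SLC7A1, PSAT1 and NEFL. A few genes that these rules name are not reported here. The comparison, lists and members were chosen with earlier results of these data known. Alternatives were normexp background correction (offset 50), quantile normalization, both, the 75th percentile over probes above background on all 4 arrays, the authors' values, other filters, all 8 arrays with and without weights, the replicate block, the methods' paired t-test, and leaving out each array. Chromosome medians used windows of 10 Mb with at least 20 genes, and were examined after their values were seen.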

Additional observations from a re-analysis of the deposited data

Results flagged for a closer look

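Control probes, which no comparison uses, carried signal on GFP 1. The 350 spots of the labelling spike-in control probes had a median processed signal of 244 on GFP 1, against 6.04 to 8.48 on the other 7 arrays. The 3360 spots of probes for external RNA standards had a median of 83.2 on GFP 1, against 5.96 to 8.38 on the others. The negative control probes had a median of 7.004 on GFP 1 and 5.71 to 8.15 on the others. Whether such RNAs were added to any sample is not given in the sources used here, and their part in the raised signal of dim probes on GFP 1 was not tested.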

How the results depend on the processing

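The count of genes lower than both GFP arrays moved most. From 530 genes it went to 246 with normexp background correction, 225 with quantile normalization, 123 with both, 130 with the authors' values, 1003 with no filter and 353 among probes above background on all 4 arrays. The count of genes higher than both moved from 206 to 372 with quantile normalization, and to 194 to 218 in the other settings but 144 and 148, with the 75th percentile over probes above background on all 4 arrays and with the filter for such probes. The share of genes that were higher was 44.1% with normexp, 62.3% with quantile normalization, 63.7% with both, 19.5% with the other percentile and 17.9% with no filter. Leaving out 1 array gave 190 to 756 genes higher and 532 to 2367 lower. Without GFP replicate 1 they were 591 and 705, and without GFP replicate 2, with GFP 1 as the single control, 756 and 2367.

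Limma called 0 genes in either direction on 4 arrays. With normexp it called 1 higher and 3 lower. It called 234 and 415 with all 8 arrays in one fit, and 6 and 41 with array weights. Leaving out 1 array gave 0 to 751 called higher and 0 to 2318 lower. Without GFP replicate 1 the fit called 557 and 627, and without GFP replicate 2 it called 751 and 2318, the lone GFP array being assumed to vary like the HuR arrays. With the replicate block it called 0 and 0, and 0 and 0 by the methods' paired t-test after Benjamini-Hochberg adjustment, which without adjustment gave 97 higher and 151 lower. Without GFP 1 or GFP 2 all 206 and 530 genes kept their place, as the rule requires.

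The chromosome 20 median of -0.54 was -0.46 with quantile normalization and with normexp and quantile normalization, -0.42 in the authors' values, and -0.50 to -0.56 with 1 array left out. That of chromosome 5 was 0.19 to 0.33, of chromosome 21 -0.31 to -0.14 and of chromosome 13 -0.29 to -0.09. Of the 68 named genes past 2-fold, VWF alone changed sign, to 0.27 with quantile normalization, 0.015 with normexp and quantile normalization and 0.009 in the authors' values. Over all 736 genes past 2-fold, 54 took the opposite sign with quantile normalization and 35 in the authors' values. With normexp and quantile normalization 28 did so, and with no filter 2. The cause of these changes was not tested. Dim probes had the widest spread between replicate arrays. Of the 530 lower genes, 132 were not well above background on either HuR array, and of the 206 higher genes, 36 on either GFP array.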
